A study of Mus musculus with 45 samples.

Results

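The passage from the control oocyte to the control late two-cell embryo was described from 10 of the 45 samples of the series, all of them RNA-seq libraries, of which the series holds 22. They were taken by their labels: 3 control libraries of fully grown oocytes (FGOs) and 7 control two-cell embryos, replicates 1, 2, 3, 5, 6, 7 and 8. Control embryo replicate 4 was set aside by the study for a technical problem and enters only as an alternative. Each FGO library held 5 FGOs punched from the ovaries of females aged 3 to 4 weeks, on a hybrid C57BL/6 and 129 background. Each two-cell library was a single embryo, made by in vitro fertilization of oocytes from females superovulated with CARD HyperOva and hCG, with JF-1 as the strain of the sperm, cultured in KSOM and harvested 31 to 32 h after fertilization. The mothers of both stages carried a floxed H3f3b allele that encodes the K36M form of histone H3.3 only after Cre recombination, and they carried no Gdf9-Cre, a transgene driven by the oocyte promoter of Gdf9. The controls are therefore not wild type at H3f3b. The labels do not say whether libraries of a stage came from separate females, so the p-values measure the spread between these libraries.

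A growing oocyte fills its cytoplasm with transcripts and proteins and then stops transcription until after fertilization. During meiotic maturation and the first cell cycle most of the stored RNA is deadenylated and degraded, which is called maternal clearance. The embryo starts its own transcription in a weak wave in the zygote and a strong wave in the late two-cell stage, called zygotic genome activation. In the mouse this strong wave includes a burst of genes that are on for this stage only, among them the Zscan4, Usp17l and Trim43 families, and a rise of genes for ribosome production, splicing and translation.

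The values were TPM, a length-corrected abundance for which the authors divided the reads of each gene by its length and set the sum of every library to 1000000. TPM is a share of the RNA in a library and says nothing of the amount of RNA per cell or embryo, so a gene can gain share because other transcripts were lost, and fewer cells of a type cannot be told apart from less RNA per cell. Read numbers per gene cannot be recovered from it. By the paper's list of total reads, every FGO library used here was sequenced more deeply than every embryo used. Stage went together with pools of 5 against single embryos, and embryos had fewer total reads and more cycles of amplification. It also went together with superovulation, fertilization in vitro, culture and a JF-1 sperm genome. None of these can be told apart from stage. By the median, libraries of a stage were more alike than libraries of different stages, with ranges that overlapped for embryos: the Spearman correlation was 0.935 to 0.949 (median 0.937) between FGO libraries, 0.735 to 0.854 (median 0.801) between embryos and 0.678 to 0.761 (median 0.733) between stages. The embryos were the more variable stage. Among genes with a stage mean of at least 50 TPM, the median SD of log2(TPM + 1) was 0.0928 over FGO libraries (4283 genes) and 0.64 over embryos (4538 genes).

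The number of genes at 1 TPM or more was 13735 ± 348 (SD, n = 3) in FGO libraries and 13066 ± 1631 (SD, n = 7) in embryos, which did not differ beyond the spread (exact permutation test, two-sided p = 0.517). At a threshold of 5 TPM the difference had the opposite sign (10398 ± 166 and 10737 ± 1093, exact permutation p = 0.633). Genes listed at 0 were fewer in FGO libraries, 8389 ± 643 against 11528 ± 1821 in embryos, with no overlap between the groups (exact permutation p = 0.0167, the smallest that 3 against 7 allows). A value of 0 also depends on total reads and on the material put in. Both were lower for embryos, so this difference cannot be told apart from them. The 10 most abundant genes held 4.67% ± 0.112 of the TPM in FGO libraries and 4.01% ± 0.806 in embryos (exact permutation p = 0.3), and the 50 most abundant held 12.8% ± 0.165 and 9.49% ± 1.0 (exact permutation p = 0.0167). FGO transcript pools were thus more concentrated in their top 50 genes than those of embryos, whereas for the top 10 no difference was detected.

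To find which transcripts changed share, log2(TPM + 1) was compared between stages with limma over 16723 genes whose 2 stage means averaged at least 1 TPM, at a Benjamini-Hochberg adjusted p of 0.05. In two-cell embryos 2555 genes were higher (15.3% of those tested) and 2781 were lower (16.6%), while 11387 did not pass. Of the called genes, 1698 rose and 1971 fell by a log2 fold change of at least 2, which is 10.2% and 11.8% of those tested. The genes called lower held 46.9% ± 0.242 of the TPM in FGO libraries and 11.1% ± 1.5 in embryos, and the genes called higher held 10.5% ± 0.0781 and 42.3% ± 2.39. These shares restate the calls that selected the genes and are a description of their size. Leaving out FGO replicate 1, 2 or 3 left 1697, 1702 or 1732 genes higher and 1591, 1656 or 1606 lower, while leaving out any 1 embryo left 2317 to 3036 higher and 2563 to 3083 lower. Because 1 was added before taking logs, fold changes of low genes come out too small, and genes listed at 0 in all libraries of a stage are described here by their levels.

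**Figure D1:**
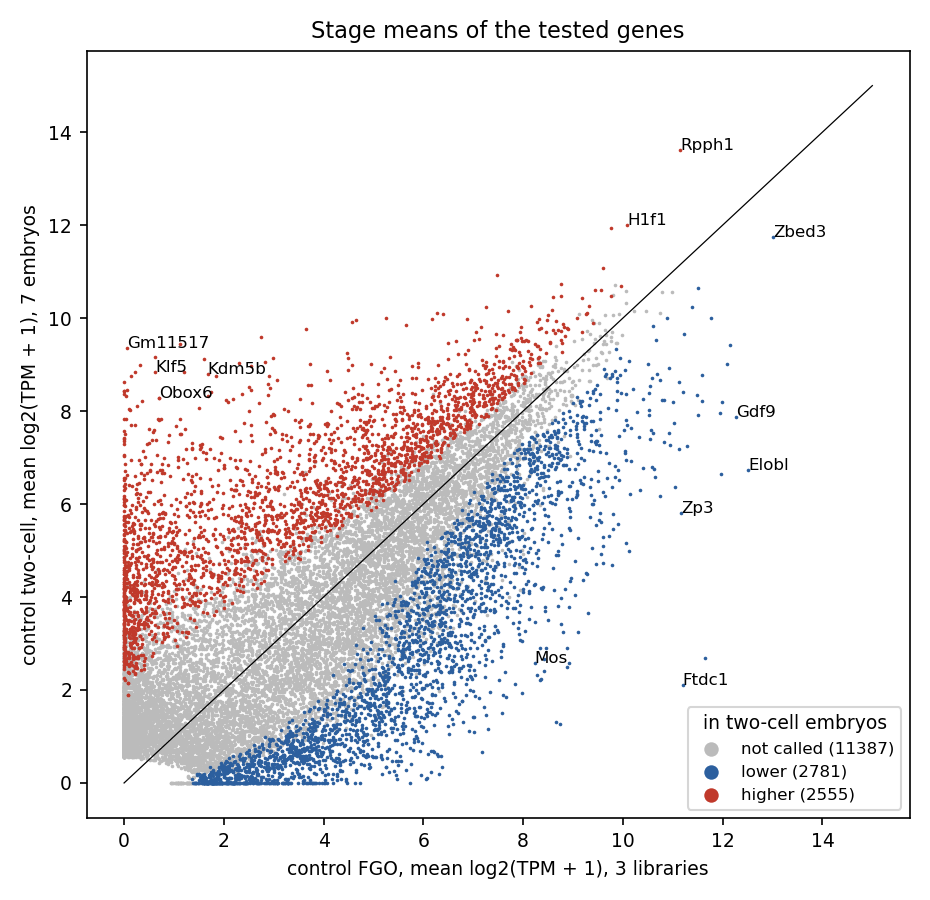
Mean log2(TPM + 1) of each of 16723 tested genes in 3 control FGO libraries (x axis) and 7 control two-cell embryos (y axis), with 2555 genes called higher, 2781 called lower and 11387 not called in 3 colours. The line marks equal levels. Some named genes lie far from it, such as Ftdc1 and Elobl on the FGO side and Gm11517 and Klf5 on the two-cell side. Others, such as Zbed3 and H1f1, lie closer to it.

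Most of the genes for secreted and surface proteins of the oocyte fell. Of 14 tested, 11 were lower (78.6%, against 16.6% of all genes) and 2 higher, with a median log2 fold change of -3.51 against -0.0005 over all tested genes, and their summed TPM was 16548 to 16600 in FGO libraries and 1768 to 4098 in embryos. Zp3, which encodes the zona pellucida protein that binds sperm, was at 2319, 2386 and 2226 TPM in the FGO libraries and at 19.3 to 121 TPM (median 63.6) in embryos. It fell by 5.37 on the log2 scale (SE 0.49, adjusted p = 7.5e-06), and every embryo was far below every FGO library. Zp2, another zona protein, was at 2051, 2017 and 2234 TPM and then at 39.6 to 161 (median 79.9), a log2 fold change of -4.67 (SE 0.38, adjusted p = 2.7e-06). Gdf9, the growth factor by which the oocyte instructs its cumulus cells, was at 4969, 5082 and 4774 TPM, among the highest levels of the oocyte. In embryos Gdf9 was at 110.1 to 419 TPM (mean 256) and its log2 fold change was -4.396 (SE 0.36, adjusted p = 2.9e-06). Its partner Bmp15 was at 2048, 2082 and 2124 TPM against 124 to 447 (median 214), a log2 fold change of -3.28 (SE 0.39, adjusted p = 6.7e-05). Astl, the protease that cleaves ZP2 after fertilization, fell by 4.20 (SE 0.50, adjusted p = 5.8e-05).

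Omt2a and Omt2b, a pair of oocyte maturation transcripts on chromosome 9, were the 2 members that went the other way. Omt2a was at 189.9, 186 and 203 TPM in FGO libraries and at 226 to 760.0 (median 569) in embryos, a log2 fold change of 1.34 (SE 0.34, adjusted p = 0.0095) with no overlap between the stages. Omt2b was at 389, 405 and 365 TPM against 351 to 1383 (median 1059), with overlapping stages, and its call (adjusted p = 0.027) was lost without FGO replicate 1, 2 or 3 (adjusted p = 0.092, 0.085 and 0.10) and under median-of-ratios scaling (adjusted p = 0.071).

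The 250 bases upstream of the annotated starts of Zp3 and Btg4 are shown. Zp3 is a transcript that lost share, and Btg4 is a clearance factor described further on. Capitals mark the motif CANNTG. This is the E-box, the site that FIGLA and its partner read in zona genes. The sequences are from RefSeq on GRCm38.p6, Zp3 at chr5:135979855-135980104 and Btg4 at chr9:51115751-51116000, both on the plus strand.
Zp3: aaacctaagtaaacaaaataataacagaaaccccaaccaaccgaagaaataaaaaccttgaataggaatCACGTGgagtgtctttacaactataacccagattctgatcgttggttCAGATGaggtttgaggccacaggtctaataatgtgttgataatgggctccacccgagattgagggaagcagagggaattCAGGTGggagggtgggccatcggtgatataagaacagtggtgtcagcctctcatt
Btg4: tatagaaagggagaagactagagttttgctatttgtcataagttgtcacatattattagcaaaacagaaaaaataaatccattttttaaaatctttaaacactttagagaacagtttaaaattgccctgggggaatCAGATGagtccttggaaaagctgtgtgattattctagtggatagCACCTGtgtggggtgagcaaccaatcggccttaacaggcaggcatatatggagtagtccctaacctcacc
Zp3 held 3 E-boxes, starting at -181, -134 and -55 from the start of the gene, and Btg4 held 2, at -114 and -70. The E-box is common: windows of 250 bases before to 50 after the start held at least 1 in 72.3% of all 32851 windows and in 69.1% of the windows of genes called lower. Of the 12 windows of the oocyte secreted and surface genes, 91.7% held one.

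Of 8 tested transcription factors of the oocyte, 4 were lower (50%, against 16.6% of all genes) and 1 was higher (median log2 fold change -2.13), with 2 higher without embryo replicate 2 or 6. Nobox, a homeobox activator of oocyte genes, was at 924, 854 and 896 TPM in FGO libraries and at 23.9 to 144 (median 56.1) in embryos, a log2 fold change of -4.01 (SE 0.45, adjusted p = 3.7e-05). Figla, the activator of zona genes, was at 108, 96.0 and 125 TPM and at 9.83 TPM or less in embryos (median 2.64), with 2 embryos at 0 and a log2 fold change of -5.01 (SE 0.83, adjusted p = 0.00071). Lhx8 fell by 2.67 (SE 0.44, adjusted p = 0.00068). Taf4b, a variant subunit of the general factor TFIID, was the higher member. It was at 29.4, 27.8 and 34.2 TPM in FGO libraries and at 132 to 198 TPM (median 145) in embryos, and it rose by 2.29 (SE 0.24, adjusted p = 2.5e-05).

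All 8 tested genes of the subcortical maternal complex, the protein assembly under the oocyte membrane that the first cleavages need, were called lower (median log2 fold change -4.14), against 16.6% of all genes. Padi6, which is required for the lattices of the oocyte cytoplasm, was at 3750.0, 4114 and 3916 TPM in FGO libraries and at 148 to 408 (median 276) in embryos. It fell by 3.98 (SE 0.28, adjusted p = 1.1e-06). Nlrp5, also called Mater, was at 1717, 1790.0 and 1908 TPM against 126 to 242 (median 156), and fell by 3.47 (SE 0.23, adjusted p = 5.3e-07). Nlrp4f fell by 3.66 (SE 0.34, adjusted p = 8.0e-06), Tle6 by 4.58 (SE 0.61, adjusted p = 0.00013) and Ooep by 4.33 (SE 0.46, adjusted p = 2.5e-05). Zbed3 stood apart: with 8235, 8800.0 and 7667 TPM it was the most abundant transcript of the FGO, and in embryos it was still at 2233 to 7555 TPM (median 3213), just below the lowest FGO library at its upper end. Its log2 fold change was -1.27 (SE 0.32, adjusted p = 0.0099). The calls of Zbed3 and Khdc3 were lost without FGO replicate 2 (adjusted p = 0.058 and 0.052).

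Genes for proteins that keep maternal RNA stable and silent were lower in 9 of 12 (75.0%, against 16.6% of all genes) and not called in 3 (median -3.31). Zar1, which holds untranslated RNA in the oocyte, was at 1578, 1651 and 1410.0 TPM in FGO libraries and at 38.0 to 216 (median 133) in embryos, and fell by 3.79 (SE 0.46, adjusted p = 6.8e-05). Lsm14b, a component of RNA granules, was at 1533, 1571 and 1461 TPM against 155 to 275 (median 175), and fell by 2.98 (SE 0.23, adjusted p = 2.0e-06). Igf2bp2 fell by 3.00 (SE 0.31, adjusted p = 1.9e-05), and Cpeb1, the cytoplasmic polyadenylation factor, by 4.26 (SE 0.53, adjusted p = 8.2e-05). The abundant oocyte RNA-binding gene Ybx2 did not pass (608 to 662 TPM in FGO libraries, 278 to 669 in embryos).

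Genes of RNA decay moved in both directions. Of 15 tested, 3 were higher and 3 lower, 20% each way against 15.3% and 16.6% of all genes, and the lower count was 1 with embryo replicate 4 added. The median of 0.03 changed sign under median-of-ratios scaling (-0.20) and quantile scaling (-0.09). Pabpn1l, an oocyte poly(A)-binding protein that guides clearance, was at 414, 376 and 417 TPM in FGO libraries. In embryos it was listed at 0 in 4 of 7 and reached 9.19 TPM, a log2 fold change of -7.34 (SE 0.92, adjusted p = 9.5e-05). Btg4, the adapter that brings the CCR4-NOT deadenylase to maternal RNA, was at 3722, 3351 and 3422 TPM and remained abundant in embryos at 515 to 2409 TPM (median 885). Its log2 fold change of -1.78 (SE 0.44, adjusted p = 0.0093) did not pass under quantile scaling (adjusted p = 0.061) or with embryo replicate 4 added (adjusted p = 0.073). Both uridylyl transferases that tag RNA for decay rose: Tut4 from 5.09, 5.80 and 5.15 TPM to 16.5 to 69.8 (median 45.7; log2 fold change 2.68, SE 0.50, adjusted p = 0.0015) and Tut7 by 1.46 (SE 0.30, adjusted p = 0.0028).

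Among 20 genes of meiotic arrest and resumption, 8 were lower (40.0%) and 2 higher (10%), against 16.6% and 15.3% of all genes (median -0.78), and none was higher without any 1 FGO library or with embryo replicate 4 added. Mos, the kinase that holds the egg in metaphase II, was at 279, 299 and 324 TPM in FGO libraries and at 51.5 TPM or less in embryos (median 3.33, 1 embryo at 0), and fell by 5.65 (SE 0.97, adjusted p = 0.00089). Bub1b, a spindle checkpoint kinase, was at 1593, 1480.0 and 1629 TPM against 59.2 to 262 (median 92.0), and fell by 3.85 (SE 0.38, adjusted p = 1.3e-05). Plat, the tissue plasminogen activator translated at meiotic resumption, fell by 3.06 (SE 0.22, adjusted p = 1.3e-06), and Pde3a, the phosphodiesterase that ends cyclic AMP arrest, by 2.94 (SE 0.42, adjusted p = 0.00025). The cyclins split from their kinase. Ccnb1 fell by 1.82 (SE 0.31, adjusted p = 0.00077) and Ccnb2 by 2.94 (SE 0.63, adjusted p = 0.0037), whereas Cdk1 was at 37.8 to 44.3 TPM in FGO libraries and 51.3 to 206 in embryos (adjusted p = 0.025) and Cdc20 at 70.2 to 75.1 and 60.7 to 427 (adjusted p = 0.023). The calls of Cdk1 and Cdc20 were lost without FGO replicate 1 (adjusted p = 0.076 and 0.085), 2 (0.077 and 0.077) or 3 (0.095 and 0.079) and with embryo replicate 4 added (0.076 and 0.77).

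**Figure D2:**
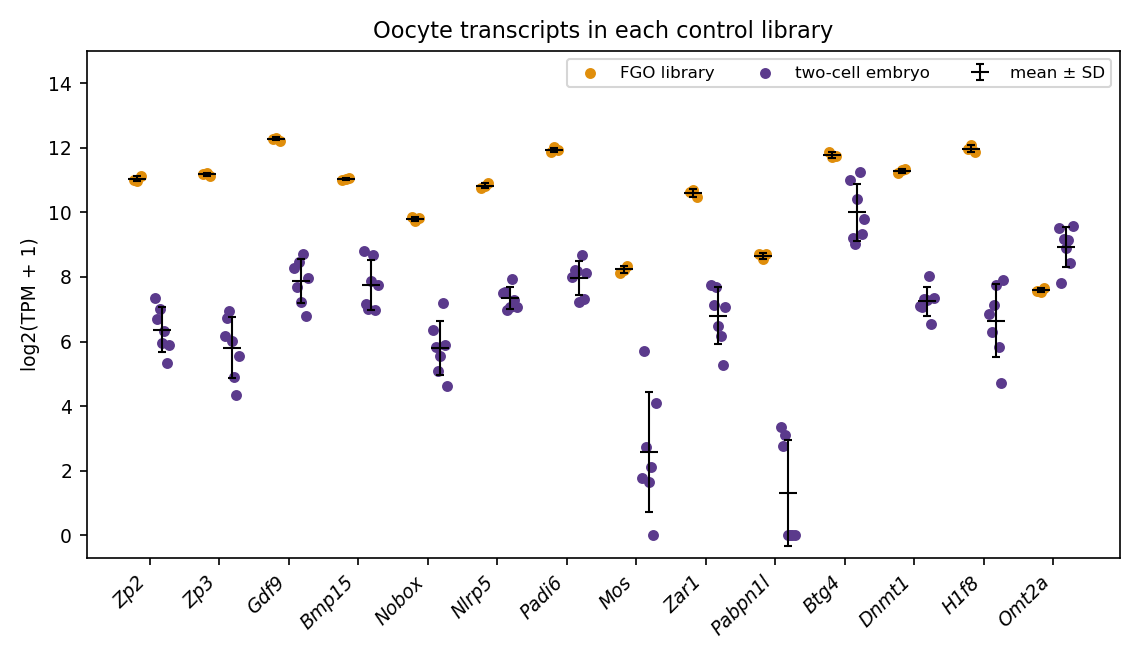
Log2(TPM + 1) of 14 oocyte genes (x axis) in each of 3 control FGO libraries and 7 control two-cell embryos, with the mean ± SD of each stage. The embryos lie below the FGO libraries in 13 of the genes and above them in Omt2a.

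The largest falls among abundant genes were led by a pair of neighbours on chromosome 16 that encode ferritin domain proteins. Ftdc1 was at 2397, 2338 and 2305 TPM in FGO libraries and at 35.4 TPM or less in embryos, of which 3 were at 0 (log2 fold change -9.08, SE 1.07, adjusted p = 5.6e-05). Ftdc2 was at 3304, 3000.0 and 3298 TPM and at 39.9 TPM or less in embryos, of which 2 were at 0 (log2 fold change -8.95, SE 1.17, adjusted p = 0.00013). The genes are similar in sequence, so reads could have been split between them. Pabpn1l, Ndufc2 and Oosp2 followed, and then genes of unrelated function: Gcnt4, a glycosyltransferase (-6.14), Steap4, a metalloreductase (-6.13), Igbp1, which binds the phosphatase PP2A (-6.13), Mbl2, a lectin (-6.12), and Glrx, glutaredoxin (-6.01). Igbp1 was at 319, 323 and 324 TPM in FGO libraries and at 13.1 TPM or less in embryos (median 5.45). The list also holds 2 entries named for microRNAs, Mir7035 and Mir7657, of 82 and 57 bases. They lie within Rasa4 and Fnbp1l on the same strand, and their values of 385 to 499 and 419 to 544 TPM in FGO libraries rest on very short lengths. The transcripts of these hosts were lower as well, with log2 fold changes of -4.30 (adjusted p = 0.014) and -1.16 (adjusted p = 0.0035), and reads of host and microRNA entry cannot be told apart here.

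Most of the abundant FGO transcripts lost share. Of the 100 genes with the highest FGO mean, a choice that itself favours falls, 85 were lower (against 16.6% of all genes), 3 higher and 12 not called. Elobl, an elongin B-like gene, was at 5867, 5888 and 5693 TPM in FGO libraries and at 67.8 to 260 (median 86.1) in embryos, and fell by 5.77 (SE 0.40, adjusted p = 9.2e-07). Skp1, a core subunit of SCF ubiquitin ligases, was at 4346, 4377 and 4368 TPM against 376 to 1170.0 (median 444), and fell by 3.07 (SE 0.31, adjusted p = 1.5e-05). H1f8, the linker histone of the oocyte, was at 3999, 4355 and 3719 TPM against 25.3 to 241 (median 114), and fell by 5.33 (SE 0.56, adjusted p = 2.5e-05). Across the table, 149 genes were at 1 TPM or more in all 3 FGO libraries and listed at 0 in all 7 embryos, 24 of them with an FGO mean of at least 10 TPM. Embryo libraries had fewer total reads and less material, so loss cannot be told apart from missed detection here.

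Nuclear-encoded genes of the respiratory chain, whose products make ATP in mitochondria, were often lower. Of 59 tested, 25 were called lower, against 16.6% of all genes, and 1 higher (median log2 fold change -2.22), and their summed TPM was 5572 to 5972 in FGO libraries and 1982 to 2854 in embryos. Ndufa3, a complex I subunit, was at 26.6, 43.9 and 37.3 TPM in FGO libraries and listed at 0 in 6 of 7 embryos, a log2 fold change of -4.99 (SE 0.57, adjusted p = 4.5e-05). Ndufc2, another complex I subunit, was at 127, 159 and 148 TPM and also at 0 in 6 of 7 embryos, a log2 fold change of -6.51 (SE 1.00, adjusted p = 0.00041). Cox6c, the most abundant member, was at 609, 578 and 605 TPM against 67.2 to 222 (median 92.3), and fell by 2.27 (SE 0.38, adjusted p = 0.00074). Ndufs8 was the member that rose, from 33.4, 25.8 and 15.04 TPM to 55.1 to 198 (median 88.0; log2 fold change 1.96, SE 0.42, adjusted p = 0.0037). The count of 25 fell to 13, 11 or 12 without FGO replicate 1, 2 or 3. Of the values of these genes, 16.7% in embryos and 0.0% in FGO libraries were listed at 0, against 19.6% and 9.87% over all tested genes. The comparison is uneven, as their median FGO TPM was 87.6 against 11.59 and their median exon length 949 against 3155 bases. At median FGO levels of 72.92 and 83.21 TPM, ribosomal protein and splicing genes had 2.38% and 0.357% of embryo values at 0. Their median exon lengths were 808 and 2926.5 bases. The reason for the zeros was not tested.

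Proteasome subunits were lower in 10 of 31 (32.3%, against 16.6% of all genes) and higher in 1 (median -1.01). Psma7, a subunit of the core ring, was at 317, 322 and 336 TPM against 4.60 to 41.2 (median 23.7), and fell by 4.15 (SE 0.58, adjusted p = 0.00020). Psma2 fell by 1.84 (SE 0.33, adjusted p = 0.0013), a call lost with embryo replicate 4 added (adjusted p = 0.086). Psmd7, of the regulatory particle, rose from 116, 121 and 149 TPM to 152 to 757 (median 476; log2 fold change 1.59, SE 0.43, adjusted p = 0.014), which was lost without FGO replicate 1 or 2 (adjusted p = 0.068 and 0.064). The count of 10 was 7, 6 or 7 without FGO replicate 1, 2 or 3.

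Turning to the genes that gained share, the largest rises started from nearly nothing. Gm11517, a transcribed pseudogene on chromosome 11, was at 0, 0 and 0.14 TPM in FGO libraries and at 229 to 1150.0 TPM (median 864) in embryos, a log2 fold change of 9.30 (SE 0.48, adjusted p = 8.0e-08). Btbd18, a nuclear BTB-domain protein, was below 0.28 TPM in every FGO library and at 266 to 736 TPM (median 489) in embryos, and rose by 8.63 (SE 0.34, adjusted p = 2.6e-08). Klf5, a zinc finger factor of the early lineages, was at 1.58, 0.34 and 0.057 TPM and then at 285 to 619 (median 489), a rise of 8.22 (SE 0.34, adjusted p = 2.6e-08). Spic, an ETS-family factor, rose by 8.39 (SE 0.36, adjusted p = 2.6e-08), and Slc34a2, a phosphate transporter, by 8.32 (SE 0.46, adjusted p = 1.4e-07). Calcoco2, a selective autophagy receptor, was listed at 0 in all FGO libraries and was at 179 to 602 TPM (median 389.5) in embryos. Pramel7 of the Prame family was also listed at 0 in every FGO library and was at 163 to 598 TPM (median 346). Stages that do not overlap were a condition for naming most of these genes.

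Such a switch was seen in 67 genes, listed at 0 in all 3 FGO libraries and at 1 TPM or more in all 7 embryos, of which 31 had a two-cell mean of at least 50 TPM. Ubtfl1, a relative of the ribosomal RNA gene factor UBTF, was at 134 to 328 TPM (median 225) in embryos. Tdpoz4, a member of the TD and POZ domain family, was at 51.8 to 418 TPM (median 171) in embryos. Npl, a sialic acid lyase, was at 37.8 to 419 TPM (median 221). By contrast, 7048 genes were at 1 TPM or more in all 10 libraries. Of the 100 genes with the highest two-cell mean, a choice that itself favours rises, 64 were higher (against 15.3% of all genes), 8 lower and 28 not called, and 23 were also among the 100 highest of the FGO.

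The genes known for a burst at the two-cell stage rose together: 26 of 31 tested were higher and 5 were not called (median log2 fold change 5.38), against 15.3% of all genes. Their summed TPM was 972 to 1082 in FGO libraries and 3816 to 7686 in embryos. Usp17lb, a deubiquitinase of the family, was at 0.061, 0.44 and 1.33 TPM and then at 305 to 937 (median 566), a rise of 8.56 (SE 0.42, adjusted p = 6.1e-08). Trim43b, a tripartite motif protein, was at 0.26 TPM or less and then at 136 to 343 (median 335), a rise of 7.86 (SE 0.36, adjusted p = 3.9e-08), and Trim43a rose by 7.90 (SE 0.41, adjusted p = 8.6e-08). Zfp352, a zinc finger gene, was at 0, 0 and 0.61 TPM and then at 70.4 to 438 (median 238), a rise of 7.47 (SE 0.55, adjusted p = 1.4e-06).

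The Zscan4 genes varied widely between embryos. Zscan4d was at 5.63, 6.42 and 3.24 TPM in FGO libraries and at 27.9 to 385 TPM (median 83.1) in embryos, a rise of 3.97 (SE 0.73, adjusted p = 0.0014) that was not called with embryo replicate 4 added (adjusted p = 0.10). Zscan4a rose by 4.67 (SE 1.07, adjusted p = 0.0057), while Zscan4c, at 1.04 to 111 TPM in embryos, did not pass. Sp110, the member with the highest TPM, was already at 647 to 736 TPM in FGO libraries and was at 643 to 1641 TPM in embryos, a difference that was not called. Members of these families are near-identical in sequence, so the split of reads between them is uncertain. At 0 in all 3 FGO libraries and 0.79 to 99.9 TPM in embryos, Zscan4f passed (adjusted p = 0.036) but was lost without FGO replicate 1, 2 or 3 (adjusted p = 0.12, 0.12 and 0.11) or embryo replicate 3 or 8 (0.060 and 0.058).

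The 250 bases upstream of the annotated starts of Zfp352 and Zscan4d are shown as examples of genes that rose sharply at this stage. They are from RefSeq on GRCm38.p6, Zfp352 at chr4:90218570-90218819 on the plus strand and Zscan4d at chr7:11166149-11166398 on the minus strand. Capitals mark TAATCC, the core that bicoid-type homeobox proteins read, in Zfp352 and TATAAA, the TATA box, in Zscan4d.
Zfp352: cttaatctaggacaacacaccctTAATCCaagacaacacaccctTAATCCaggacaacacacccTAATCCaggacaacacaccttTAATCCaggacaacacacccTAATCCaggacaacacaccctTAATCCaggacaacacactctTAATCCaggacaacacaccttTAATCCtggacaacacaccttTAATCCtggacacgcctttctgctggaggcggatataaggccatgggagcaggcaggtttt
Zscan4d: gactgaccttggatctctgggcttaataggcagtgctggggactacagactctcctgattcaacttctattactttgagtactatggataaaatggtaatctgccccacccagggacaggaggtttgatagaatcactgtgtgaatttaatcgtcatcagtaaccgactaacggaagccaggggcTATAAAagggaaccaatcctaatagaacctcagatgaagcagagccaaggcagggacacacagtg
Zfp352 held TAATCC 9 times at nearly even spacing, the first at -227 and the last at -61 from the start. Zscan4d held 1 TATA box at -65. Among the 20 windows of the transient two-cell genes, 45% held TAATCC on either strand, against 7.06% of all windows and 7.62% of the windows of genes called higher. TATAAA was in 35.0% of the 20 windows against 13.6% of all, CCAAT in 70.0% against 37.4%, AAGGTCA in 20% against 4.72% and GGGCGG in 5.0% against 35.7%. Since family members share ancestry, these windows are not independent of each other.

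Members of the Obox homeobox family split between the stages, with all 6 tested members called, against 31.9% of all genes in either direction. Obox2 was at 1517, 1600.0 and 1668 TPM in FGO libraries and at 44.2 to 151 (median 136) in embryos, and fell by 4.07 (SE 0.40, adjusted p = 1.3e-05). Obox1 was at 991, 955 and 940 TPM against 34.6 to 200.1 (median 113), and fell by 3.17 (SE 0.46, adjusted p = 0.00026). Obox5 fell by 2.00 (SE 0.51, adjusted p = 0.0098) and Obox7 by 2.50 (SE 0.37, adjusted p = 0.00031). Obox6 and Obox3 moved the other way. Obox6 was at 1.83, 0.50 and 0 TPM and then at 206 to 459 (median 302), a rise of 7.58 (SE 0.38, adjusted p = 6.5e-08), and Obox3 was at 0.059, 1.26 and 0.92 TPM and then at 149.8 to 301 (median 253), a rise of 7.10 (SE 0.36, adjusted p = 6.5e-08). The summed TPM of the family was 4198 to 4299 in FGO libraries and 822 to 1629 in embryos.

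Factors known as activators of zygotic transcription were higher in 9 of 18 (50%, against 15.3% of all genes) and lower in 2 (11.1%, against 16.6%; median 1.57). Gabpa, an ETS-family activator, was at 4.96, 4.78 and 6.95 TPM in FGO libraries and at 184 to 449.6 (median 309) in embryos, a rise of 5.48 (SE 0.31, adjusted p = 1.8e-07). Rarg, a retinoic acid receptor, rose by 5.38 (SE 0.43, adjusted p = 2.5e-06), Klf4 by 4.81 (SE 0.39, adjusted p = 2.6e-06), Tead4 by 5.04 (SE 0.67, adjusted p = 0.00015) and Dppa4 by 3.67 (SE 0.45, adjusted p = 7.6e-05). Yap1, a maternal coactivator of TEAD factors, rose by 1.28 from a high FGO level of 388, 426 and 395 TPM to 723 to 1531 (SE 0.22, adjusted p = 0.00084). Nfya, a subunit that binds CCAAT boxes, was at 472, 472 and 417 TPM against 86.1 to 166 (median 111), and fell by 1.98 (SE 0.24, adjusted p = 6.1e-05). Klf17 was at 447 to 513 TPM in FGO libraries and 349.6 to 635 in embryos, and Dppa2 at 126 to 131 and 56.0 to 299, and neither was called.

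Pluripotency and lineage factors were higher in 4 of 14 (28.6%, against 15.3% of all genes) and lower in 1 (7.14%, against 16.6%). Zfp42, also called Rex1, was at 4.71, 0.79 and 2.01 TPM and then at 31.8 to 295 (median 182), a rise of 5.45 (SE 0.62, adjusted p = 4.6e-05). Fgf4 was listed at 0 in all FGO libraries and was at 12.5 to 69.3 TPM (median 33.7) in embryos. Eomes rose by 4.17 (SE 0.76, adjusted p = 0.0013). Pou5f1, which encodes OCT4, was already present in FGO libraries at 253 to 285 TPM and was at 248 to 535 in embryos, and was not called, nor was Nanog, at 0.087 TPM or less in FGO libraries and 15.5 TPM or less in embryos. Sall4 fell by 0.96 (SE 0.21, adjusted p = 0.0043). Sox2 passed at an adjusted p of 0.041 but was at 0 in 1 embryo and lost its call without FGO replicate 1, 2 or 3 (adjusted p = 0.13, 0.12 and 0.11) or without embryo replicate 1, 2, 3, 5, 6 or 8 (0.068, 0.057, 0.072, 0.069, 0.059 and 0.055).

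Heat shock proteins and the chaperonin were mixed, 5 of 17 higher (29.4%, against 15.3% of all genes) and 4 lower (23.5%, against 16.6%). Hspa1a, an inducible HSP70 and an early product of the zygotic genome, was at 0.034, 0.90 and 0.70 TPM in FGO libraries and at 5.44 to 146 (median 43.3) in embryos, a rise of 4.62 (SE 0.96, adjusted p = 0.0030). Its near copy Hspa1b rose by 3.29 (SE 0.51, adjusted p = 0.00040). Hsp90aa1, a maternal chaperone, was at 4509, 4176 and 4863 TPM against 294 to 1338 (median 706), and fell by 2.72 (SE 0.33, adjusted p = 7.5e-05). The chaperonin subunits diverged, as Cct5 fell by 2.14 (SE 0.26, adjusted p = 7.6e-05) and Cct6a rose by 2.97 (SE 0.45, adjusted p = 0.00034). The 250 bases upstream of the annotated start of Hspa1a (RefSeq, GRCm38.p6, chr17:34972157-34972406, minus strand) are shown with GAANNTTC, a unit of the element that heat shock factor reads, in capitals.
Hspa1a: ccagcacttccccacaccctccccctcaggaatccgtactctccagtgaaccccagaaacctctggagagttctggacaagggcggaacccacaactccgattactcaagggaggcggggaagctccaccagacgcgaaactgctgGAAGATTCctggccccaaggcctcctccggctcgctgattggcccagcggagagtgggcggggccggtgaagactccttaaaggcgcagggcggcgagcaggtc
The motif occurred 1 time, at -104, and 7.86% of all windows held it.

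**Figure D3:**
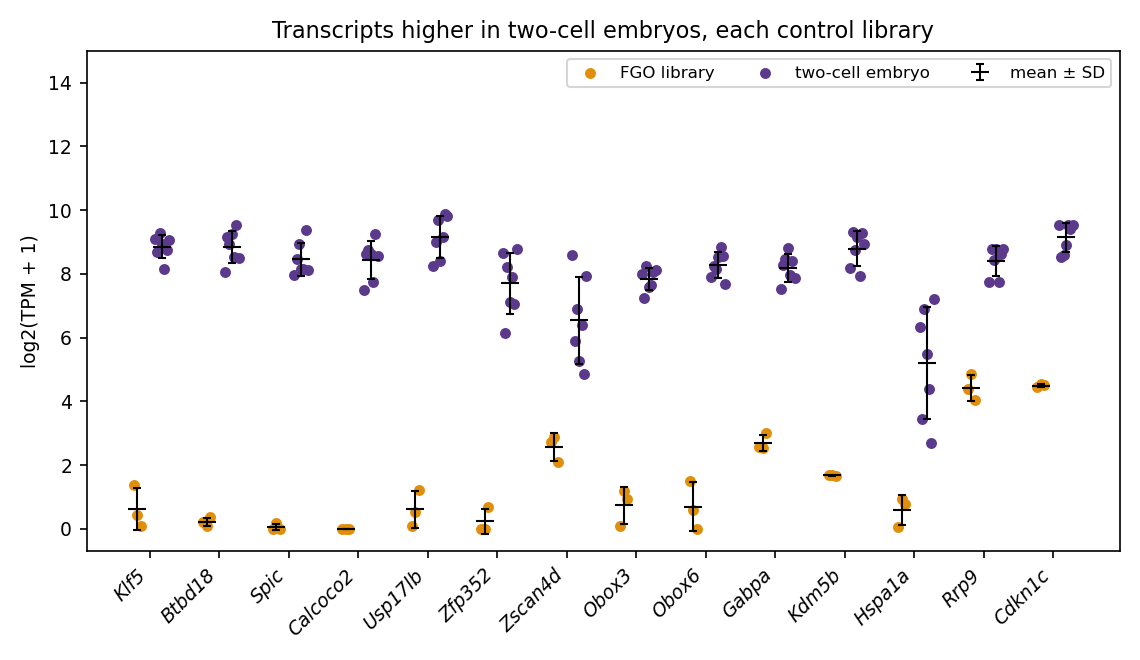
Log2(TPM + 1) of 14 genes that were higher in two-cell embryos (x axis) in each of 3 control FGO libraries and 7 control two-cell embryos, with the mean ± SD of each stage. Every embryo lies above every FGO library in all 14 genes, and Hspa1a and Zscan4d have the widest spread between embryos.

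Genes of ribosome biogenesis were higher in 19 of 34 (55.9%, against 15.3% of all genes), with 1 lower and a median log2 fold change of 1.36. The summed TPM of the list was 4060 to 4399 in FGO libraries and 4692 to 11201 in embryos. Rrp9, a protein of the U3 small nucleolar particle, was at 19.98, 27.8 and 15.3 TPM and then at 211 to 443 (median 393), a rise of 3.99 (SE 0.32, adjusted p = 2.5e-06). Nop16 rose by 5.52 (SE 0.49, adjusted p = 6.1e-06) from 1.80 to 4.399 TPM in FGO libraries to 68.9 to 269 (median 237) in embryos. Ubtf, the activator of ribosomal RNA genes, rose by 3.33 (SE 0.28, adjusted p = 4.1e-06), and Rrs1 by 4.34 (SE 0.54, adjusted p = 9.3e-05). Nhp2 was at 61.4, 78.4 and 95.7 TPM and then at 386 to 614 (median 566), a rise of 2.70 (SE 0.23, adjusted p = 4.0e-06) that did not pass with embryo replicate 4 added (adjusted p = 0.29). The abundant nucleolar genes Npm1 (709 to 795 TPM in FGO libraries, 296 to 1213 in embryos) and Ncl (641 to 759.5 and 362 to 1003) were not called. Utp4 was the lower member, at 299.6 to 329 TPM in FGO libraries and 25.2 to 231 in embryos (adjusted p = 0.049). Its call was lost without FGO replicate 1, 2 or 3 (adjusted p = 0.13, 0.13 and 0.15) or embryo replicate 2, 6 or 8 (0.051, 0.067 and 0.080). With embryo replicate 4 added, 12 members were higher.

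Genes for the ribosomal proteins themselves were higher in 14 of 78 (17.9%, near the 15.3% of all genes) and lower in 2 (2.56%, against 16.6%). Their median log2 fold change of 0.10 changed sign under median-of-ratios scaling (-0.13) and with embryo replicate 4 added (-0.07). Rps12 was at 26.0, 30.6 and 33.0 TPM and then at 121 to 484 (median 209), a rise of 2.73 (SE 0.38, adjusted p = 0.00020), and Rpl23 rose by 2.48 (SE 0.35, adjusted p = 0.00023). Rplp0, of the ribosomal stalk, was at 238, 226 and 291 TPM and then at 457 to 946 (median 830.2), a rise of 1.55 (SE 0.23, adjusted p = 0.00031), which did not pass with embryo replicate 4 added (adjusted p = 0.071). Rpl17 fell by 3.63 (SE 0.68, adjusted p = 0.0016). Rplp2, the most abundant member, was at 906 to 930.2 TPM in FGO libraries and 629 to 2781 in embryos and did not pass. Without FGO replicate 1, 2 or 3 the 14 higher became 9, 9 or 8, and with embryo replicate 4 added they became 5. Without embryo replicate 6, 22 were higher and 5 lower. With weights per stage 22 were higher and 11 lower, and with weights per library 29 and 9.

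The machinery of translation initiation and splicing held members that moved each way. Of 38 initiation factors 9 were higher (23.7%, against 15.3% of all genes) and 5 lower (13.2%, against 16.6%). The lower count became 1 without FGO replicate 1, 2 or 3, 3 without embryo replicate 1 or 3 and 2 with embryo replicate 4 added. Eif4g2, a scaffold for cap-independent initiation, was at 243, 237 and 263 TPM and then at 669 to 850.3 (median 782), a rise of 1.62 (SE 0.15, adjusted p = 1.1e-05), with the scaffold Eif4g1 at 1.59 (SE 0.23, adjusted p = 0.00023) and Eif5 at 1.45 (SE 0.23, adjusted p = 0.00048). Eif4e1b, the oocyte form of the cap-binding protein, was at 909, 962 and 906 TPM against 177 to 653 (median 215), and fell by 1.83 (SE 0.36, adjusted p = 0.0023). Of 40 splicing genes 10 were higher (25%) and 4 lower (10%), led by SR proteins, which guide splice-site choice. Srsf1 was at 50.2, 52.8 and 51.9 TPM and then at 132 to 384 (median 246), a rise of 2.19 (SE 0.31, adjusted p = 0.00022), Srsf6 rose by 2.44 (SE 0.35, adjusted p = 0.00027) and Srsf5 by 2.47 (SE 0.36, adjusted p = 0.00028). The higher count of splicing genes became 5, 4 or 7 without FGO replicate 1, 2 or 3 and was 6, level with 6 lower, under median-of-ratios scaling.

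Replication-dependent histone genes, which make the histones of S phase, were higher in 28 of 61 (45.9%, against 15.3% of all genes) and lower in 1 (median 1.92). Their summed TPM was 4361 to 4832 in FGO libraries and 12494 to 19620 in embryos. H1f1, a linker histone, was at 1038, 1345 and 923 TPM and then at 2918 to 6099 (median 3871), a rise of 1.92 (SE 0.23, adjusted p = 6.2e-05). The fall of H1f8 and the rise of H1f1 left every embryo with more H1f1 than H1f8 and every FGO library with more H1f8 than H1f1, in TPM. H2ac12 rose by 3.69 (SE 0.28, adjusted p = 1.9e-06) and H2bc18 by 1.85 (SE 0.31, adjusted p = 0.00070). H3c8 rose by 3.35 (SE 0.31, adjusted p = 8.3e-06) from 15.2 to 23.8 TPM to 123 to 287 (median 207). H2ac1, a variant of the germ line, was the exception at 1086, 1080.0 and 1057 TPM against 61.4 to 550.0 (median 233), and fell by 2.26 (SE 0.52, adjusted p = 0.0056), a call lost with embryo replicate 4 added (adjusted p = 0.062). Histone genes are near-identical copies, so counts for single genes are uncertain, and the 28 became 19, 16 or 16 without FGO replicate 1, 2 or 3.

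Of 30 genes of replication licensing and the fork, 9 were lower (30.0%, against 16.6% of all genes) and 4 higher (13.3%, against 15.3%). Without FGO replicate 1, 2 or 3 these became 4, 5 or 5 lower and 3 higher each time. Orc5, a subunit of the origin recognition complex, was at 500.4, 483 and 479 TPM against 3.20 to 53.1 (median 20.3), and fell by 4.59 (SE 0.63, adjusted p = 0.00018). Mcm4 of the replicative helicase fell by 2.22 (SE 0.46, adjusted p = 0.0030). Cdc45, which activates that helicase, was at 54.7, 50.8 and 61.8 TPM and then at 167 to 411 (median 326), a rise of 2.38 (SE 0.30, adjusted p = 0.00011). Gmnn, geminin, the inhibitor of licensing, rose by 1.98 (SE 0.23, adjusted p = 5.8e-05) but not with embryo replicate 4 added (adjusted p = 0.22).

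Of 23 genes of glycolysis and pyruvate use, 4 were higher (17.4%, near the 15.3% of all genes) and 2 lower (8.7%, against 16.6%). Without embryo replicate 7, 9 were higher, and without FGO replicate 1 or 3, 1 was lower. Slc2a3, the glucose transporter GLUT3, was at 0.024, 0.021 and 0.52 TPM and then at 33.1 to 97.0 (median 55.4), a rise of 5.49 (SE 0.50, adjusted p = 7.0e-06), and hexokinase Hk1 rose by 3.83 (SE 0.68, adjusted p = 0.0011). Ldhb, lactate dehydrogenase B, was at 4020.0, 4399 and 3796 TPM, among the 10 highest of the FGO, and fell by 3.79 (SE 0.23, adjusted p = 3.7e-07) to 202 to 430.1 (median 284). Ldha, the other lactate dehydrogenase gene, was at 0.20 to 3.14 TPM in FGO libraries and 0 to 65.0 in embryos and was not called.

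**Figure D4:**
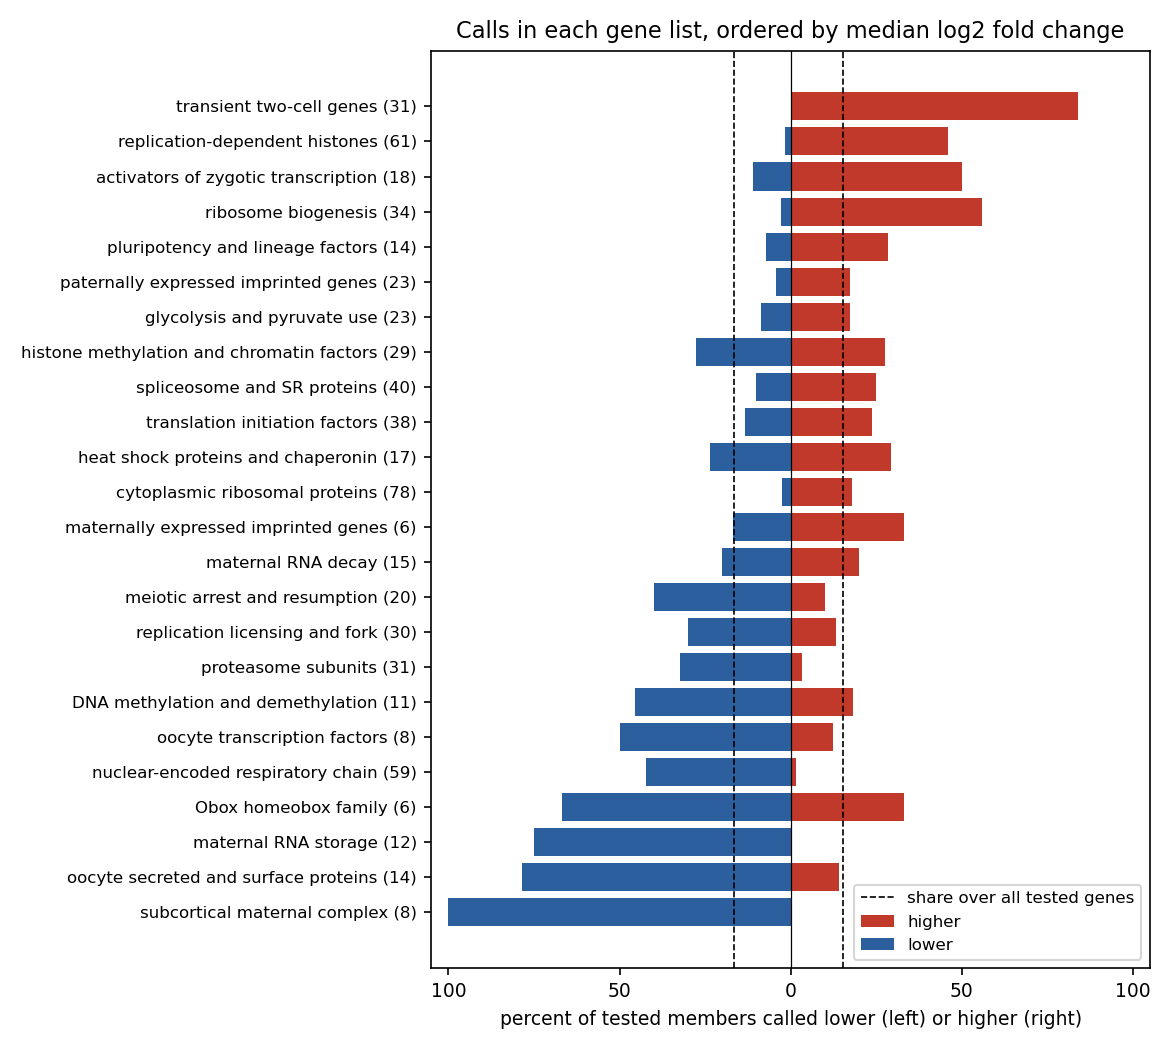
Percent of the tested members of each gene list (number in brackets), leaving out the lists of cell type markers and of Xist and Y-linked genes, that were called lower (bars to the left) or higher (bars to the right) in two-cell embryos, ordered by the list's median log2 fold change. Dashed lines mark the share over all 16723 tested genes, 16.6% lower and 15.3% higher, and the subcortical maternal complex and the transient two-cell genes are the 2 ends of the lists drawn.

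Genes of DNA methylation were lower in 5 of 11 (45.5%, against 16.6% of all genes) and higher in 2 (18.2%, against 15.3%). Dnmt1, the maintenance methyltransferase, was at 2374, 2512 and 2608 TPM in FGO libraries and at 93.2 to 259 (median 156) in embryos, and fell by 4.04 (SE 0.26, adjusted p = 5.3e-07). Uhrf1, its recruiter, was at 914, 1006 and 982 TPM against 32.6 to 187 (median 103), and fell by 3.39 (SE 0.41, adjusted p = 6.5e-05). Of the TET dioxygenases, which oxidise methylcytosine, Tet3 fell by 3.02 (SE 0.30, adjusted p = 1.4e-05) from 867 to 955 TPM to 61.9 to 199.9, while Tet1 rose by 3.89 (SE 0.54, adjusted p = 0.00020) from 0.97 to 1.34 TPM to 11.7 to 55.9. Zfp57, which protects imprints, fell by 2.08 (SE 0.16, adjusted p = 2.2e-06). Dppa3, the guard of the maternal genome against demethylation, remained abundant at 1321 to 2083 TPM in embryos against 2733 to 3000.0 in FGO libraries, and fell by 0.86 (SE 0.15, adjusted p = 0.0013), a call that quantile scaling removed (adjusted p = 0.67). The de novo enzyme Dnmt3a was at 90.1, 82.4 and 91.0 TPM against 13.3 to 81.0 (median 39.4) and its cofactor Dnmt3l at 107, 104.6 and 113 against 20.8 to 104 (median 54.9). Neither passed (adjusted p = 0.063 and 0.080), although every embryo was below every FGO library. Dnmt3a was called lower under quantile and median-of-ratios scaling (adjusted p = 0.033 and 0.027), with weights per library or stage (0.00067 and 0.0037) and without embryo replicate 6 or 7 (0.020 and 0.045). Dnmt3l was called lower under median-of-ratios scaling (adjusted p = 0.042), with weights per library or stage (0.00044 and 0.0046) and without embryo replicate 6 (0.028). Dnmt3b was at 13.2 to 19.8 TPM and then at 27.4 to 92.6 (adjusted p = 0.024), a call lost without FGO replicate 1, 2 or 3 (adjusted p = 0.057, 0.081 and 0.10) and with embryo replicate 4 added (0.51).

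Histone methylation and chromatin factors were called in 16 of 29, 27.6% each way against 15.3% higher and 16.6% lower of all genes. Kdm5b, an H3K4 demethylase, was at 2.23, 2.203 and 2.17 TPM in FGO libraries and at 242 to 635 (median 484) in embryos, a rise of 7.11 (SE 0.34, adjusted p = 5.9e-08). Chd1, an H3K4me3-binding remodeller, was at 34.7, 24.7 and 41.0 TPM and then at 182 to 395 (median 274), a rise of 3.03 (SE 0.29, adjusted p = 1.2e-05). Npm2, the nucleoplasmin that opens sperm chromatin, was at 3219, 3031 and 3016 TPM against 321 to 500.1 (median 447), and fell by 2.83 (SE 0.17, adjusted p = 2.7e-07). Kdm1b, a demethylase needed for maternal imprints, fell by 2.86 (SE 0.28, adjusted p = 1.4e-05). Suz12 of the Polycomb complex PRC2 rose by 0.93 (SE 0.18, adjusted p = 0.0016). Setd2, the H3K36me3 methyltransferase, was at 263, 231 and 243 TPM and then at 292 to 758 (median 693), a rise of 1.27 (SE 0.27, adjusted p = 0.0038). Both H3.3 genes were present at each stage and were not called, H3f3a at 151 to 156 TPM in FGO libraries and 44.5 to 173 in embryos and H3f3b, the gene with the floxed allele, at 265 to 308 and 301 to 968.

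Imprinted genes are expressed from 1 parental allele only. Among 23 tested genes expressed from the paternal allele, 4 were higher (17.4%, near the 15.3% of all genes) and 1 lower (4.35%, against 16.6%), and 2 were higher without FGO replicate 1, 2 or 3 or without embryo replicate 3. The lower count was 0 without FGO replicate 1 and 2 without embryo replicate 7. Zrsr1, a splicing factor retrogene, was at 2.73, 0.58 and 0.59 TPM and then at 53.8 to 164 (median 113), a rise of 5.73 (SE 0.46, adjusted p = 2.4e-06), and Jade1 rose by 4.97 (SE 0.52, adjusted p = 2.2e-05). Among 6 tested genes expressed from the maternal allele, 2 were higher (33.3%) and 1 lower (16.7%). Cdkn1c, a cell cycle inhibitor, was at 20.7, 22.1 and 21.7 TPM and then at 366 to 742 (median 679), a rise of 4.65 (SE 0.28, adjusted p = 3.2e-07). Phlda2 rose by 3.62 (SE 0.78, adjusted p = 0.0038), a call lost with embryo replicate 4 added (adjusted p = 0.16), and Ube3a fell by 1.90 (SE 0.41, adjusted p = 0.0040). TPM does not separate alleles, and allelic expression was not analysed here.

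Transcripts of Xist and of Y-linked genes differed between embryos. The summed TPM of 7 Y-linked genes was 0 in all 3 FGO libraries. It was 145, 65.5, 53.6 and 154 in embryo replicates 1, 2, 5 and 6 and was 0 in replicates 3, 7 and 8. Xist, the RNA that silences an X chromosome in females, was at 0.10 TPM or less in FGO libraries. In embryo replicates 1, 2, 5 and 6 it was at 0.028, 0.14, 0.20 and 0.38 TPM, and in replicates 3, 7 and 8 at 1.88, 7.07 and 5.97. The embryos without Y-linked TPM were thus the 3 with the highest Xist, and the stage comparison called none of these 8 genes (limma, 0 of 8 at the adjusted threshold, 0 of 8 at an unadjusted p under 0.05, and 4 of 8 higher with weights per library or per stage). X-linked genes as a whole were called higher in 7.68% of 599 tested and lower in 15.7%, against 15.3% and 16.6% over all chromosomes.

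**Figure D5:**
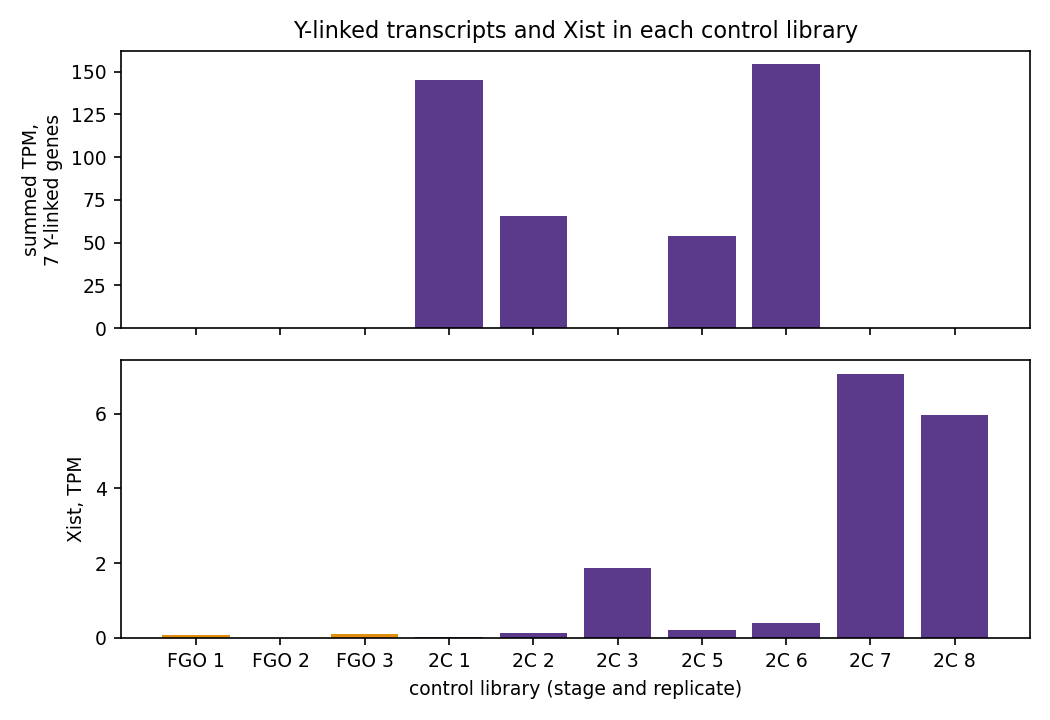
Summed TPM of 7 Y-linked genes (upper panel) and TPM of Xist (lower panel) in each control library, named by stage and replicate. Bars start at 0, and the 4 embryos with Y-linked TPM have Xist at 0.38 TPM or less while the other embryos have 1.88 to 7.07.

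The transcripts with the highest two-cell level were not the strongest risers. Rpph1, the RNA of the tRNA-processing enzyme RNase P, was at 3496, 1717 and 1932 TPM in FGO libraries and at 8934 to 24129 (median 11892) in embryos, a rise of 2.48 (SE 0.29, adjusted p = 4.8e-05). Ccdc6 was at 877, 895 and 836 TPM and then at 3200.0 to 5264 (median 3732), a rise of 2.18 (SE 0.17, adjusted p = 2.0e-06). Bmi1, a Polycomb protein of PRC1, rose by 1.47 (SE 0.19, adjusted p = 0.00011), and Ybx1, a translation regulator related to Ybx2, by 1.97 (SE 0.21, adjusted p = 2.7e-05). Hmgn5, a nucleosome-binding protein, was at 66.7 to 90.2 TPM in FGO libraries and at 68.5 to 4031 TPM (median 1939) in embryos, so that the stages overlapped although it was called (log2 fold change 3.84, adjusted p = 0.0079). Among the genes named for the smallest difference between stage means, Lrrc40 was at 102 to 131 TPM and 54.4 to 225, and Mapk8, a stress kinase, at 166 to 203 and 104.9 to 323.

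The calls were also counted by kind of transcript, position and promoter, against 15.3% higher and 16.6% lower over all tested genes. Of 94 small nucleolar RNAs tested, which guide the modification of ribosomal RNA, 27 were higher (28.7%) and 1 lower (1.06%). Of 1343 long noncoding RNAs, 77 were higher (5.73%) and 250 lower (18.6%). Among genes with a single exon 17.3% were higher and 10.3% lower, against 16.2% and 16.8% of genes with 11 or more exons. In the fifth of genes with the shortest exon length, 10.3% were higher and 18.5% lower. Chromosome 11 had the largest share called higher (19.7%) and chromosome 6 the largest share called lower (20.7%) among the chromosomes with over 9 tested genes. The observed to expected CpG ratio of the promoter window had a median of 0.78 for genes called higher, 0.66 for genes called lower and 0.705 for all tested genes, and GGGCGG, the GC box, was in 64.9%, 50.6% and 56.4% of windows. The transient two-cell genes were unlike the other genes called higher, with a median CpG ratio of 0.13 and 95.0% of windows under 0.4. These shares were not tested.

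Libraries of the K36M genotype gave a separate set of samples for the same passage, 3 FGO libraries and 8 embryos from mothers with Gdf9-Cre. Their stages differed in the same way in pool size, total reads, amplification, superovulation and fertilization in vitro. A repeat in them therefore cannot tell these apart from stage. In that comparison 1671 of 16457 genes were higher (10.2%) and 2822 lower (17.1%). Of 2537 genes higher in the control passage and tested in both, 2491 had the same sign in K36M (98.2%, against 41.4% of all genes tested in both) and 1442 were called, which is 56.8% of the control calls and 86.4% of the K36M calls. Of 2704 genes lower in the control passage, 2696 had the same sign (99.7%, against 58.6% of all genes) and 1857 were called, 68.7% of the control calls and 66.8% of the K36M calls. None was called in opposite directions, and the difference between genotypes was not tested here.

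Markers of other cells were low in both stages. The summed TPM of 14 granulosa and cumulus genes was 62.5 to 80.3 in FGO libraries and 67.1 to 141 in embryos, against 20817 to 21207 and 666 to 2119 for 10 oocyte markers, all 10 of which were called lower (against 16.6% of all genes). Fshr, the receptor that defines granulosa cells, was at 5.14 TPM or less and listed at 0 in 6 of 7 embryos. Within the granulosa list Cyp19a1, aromatase, was at 30.0, 22.8 and 22.7 TPM in FGO libraries and at 1.81 TPM or less in embryos, and Amhr2 was at 0.77 to 1.37 TPM and 12.9 to 91.5. Sperm markers summed to 26.4 to 36.3 TPM in FGO libraries and 0 to 57.1 in embryos. Prm2, a protamine, made up most of the FGO value at 21.8 to 31.2 TPM and was listed at 0 in 6 of 7 embryos. Stroma markers summed to 2.46 to 6.76 and 3.86 to 26.3 TPM and markers of blood and endothelium to 65.2 to 68.8 and 24.5 to 74.0 TPM. Of the 8 two-cell markers, 7 were higher (against 15.3% of all genes), which became 5, 4 or 4 without FGO replicate 1, 2 or 3 and 4 with embryo replicate 4 added. Their sum was 50.4 to 73.9 TPM in FGO libraries and 369 to 1872 in embryos. The part of these other cells in the results was not tested.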

How the data were processed

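RNA-seq libraries had been made with a SMART-Seq stranded kit from pooled FGOs or single late two-cell embryos. The authors trimmed reads with Trim Galore!, mapped them to mm10 with Hisat2, removed ribosomal RNA reads with BEDTools, counted genes with featureCounts, tested counts with edgeR and deposited TPM values for 26214 genes. The annotation, gene lengths and strand setting behind the deposited TPM are not given in the sources used here. TPM keeps no read number per gene, so no interval from counts is given. The paper lists total reads per library, which were higher for each control FGO library than for each control embryo.

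The 10 control libraries were grouped by their labels. Because TPM is no count, limma 3.58.1 (R 4.3.3, lmFit and eBayes with a trend) was run on log2(TPM + 1) over genes whose 2 stage means averaged at least 1 TPM, with Benjamini-Hochberg adjustment at 0.05. The fit was first checked on simulated data. Values per library were compared by exact two-sided permutation tests. Tables, tests and plots were made with Python 3.11.15, using pandas 2.3.3, scipy 1.17.1 and matplotlib 3.10.9. Of the table's genes, 99.71% were found by symbol or synonym in RefSeq's annotation of GRCm38.p6, which has the chromosomes of mm10. Promoter windows (250 bases before to 50 after the start) were searched on both strands for the motifs spelled out beside their shares, and for CACGTG, a case of the E-box with no value given.

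Named genes were list members (smallest adjusted p, highest TPM, against the list's direction), the 15 largest called changes per direction without overlap at 50 TPM or more, the 10 most abundant genes per stage and the 10 with the smallest change at 100 TPM or more in both stages. Other list members, genes at 0 in all FGO libraries and host genes were added after their values were seen. The members and the lists were chosen with earlier results of these data known. Alternatives were a pseudocount of 0.1, no filter, a filter at 5 TPM, quantile and median-of-ratios scaling, no trend, weights per library or stage, the replicate number as a block, embryo replicate 4 added, and each library left out.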

Additional observations from a re-analysis of the deposited data

Results flagged for a closer look

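Among the 7 embryos, 1 value stood apart from the rest by Dixon's test at the 95% level, on log2(TPM + 1) for genes, in 17 of 166 comparisons, each of a named gene or a library measure. For normally distributed values chance alone gives about 1 in 20 such results, a condition that values listed at 0 do not meet. With all other embryos at 0, as for Ndufa3, Ndufc2 and Prm2, any value above 0 is flagged. None of these results was weighed further. Embryo replicate 1 was lowest for Bex6 (70.8 TPM), Trim43b (136 TPM), Tet1 (11.7 TPM), Setd2 (292 TPM) and Hmgn5 (68.5 TPM), and highest for Kdm1b (122 TPM) and Ndufa3 (1.43 TPM, the others at 0). Embryo replicate 6 was lowest for Slc34a2 (216 TPM), Sf3b3 (5.29 TPM) and H2bc18 (606 TPM). Embryo replicate 3 was lowest for Ccnb2 (2.98 TPM) and Psma2 (38.3 TPM), and highest for Ndufc2 (24.0 TPM, the others at 0). Embryo replicate 7 was lowest for Khdc3 (0.33 TPM) and Sox2 (0 TPM). Embryo replicate 5 was highest for Ndufa8 (19.1 TPM), and embryo replicate 2 was highest for Prm2 (31.2 TPM, the others at 0). No tested gene had stages that were separate in opposite directions in the control and K36M libraries.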

How the results depend on the processing

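With weights per library the genes higher and lower in two-cell embryos were 4670 and 4887, and with weights per stage 4077 and 4668. Leaving out 1 library left 1697 to 3036 genes higher and 1591 to 3083 lower, with the low ends without an FGO library. The counts moved by less than 1.5 times under the other alternatives: 2234 to 2991 higher and 2301 to 3419 lower without added samples, and 1984 and 2354 with embryo replicate 4 added. Median-of-ratios scaling moved the median log2 fold change of all tested genes from -0.0005 to -0.184, a pseudocount of 0.1 to -0.221 and a filter at 5 TPM to -0.125. The difference in genes at 1 TPM or more per library (-669 genes) became 339 at 5 TPM, and the difference in the share of the 10 most abundant genes became -3.35 percentage points for the 50 most abundant (exact permutation p = 0.0167). Without 1 library these differences ranged from -1084 to -287 genes and from -0.826 to -0.522 percentage points, and with embryo replicate 4 added the second was -0.229 (exact permutation p = 0.739). Genes called in both genotypes stayed within 1.5 times under quantile scaling and the filter at 5 TPM.

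The replicate numbers shared by the stages gave correlations of 0.01, 0.005 and -0.004 between same-numbered libraries, so they are not taken as pairs, and the FGO libraries did not each correlate best with the embryo of their own number. With the replicate block 2991 genes were higher and 2330 lower, and 13 of the 160 called named genes were lost, while Dnmt3a passed there as lower (adjusted p = 0.027). Of these 160 genes, 130 kept their call under all 20 alternatives that tested them, and none changed sign. Adding embryo replicate 4 removed 15 calls, quantile scaling 3 and median-of-ratios scaling 1. TPM gives no read number per gene, and the effect of the lower total reads of embryos was not tested.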
